A study of Mus musculus with 6 samples.

Results

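The genes described here carry cholesterol into, through and out of the liver cell. They are 7 of the 22481 gene symbols of the deposited expression table, taken by symbol: the lipoprotein receptors Lrp1 and Scarb1, the receptor regulator Mylip, the sterol transfer gene Stard4 and the sterol exporters Abca1, Abcg5 and Abcg8. All 7 passed the filter on low counts. RNA was measured in livers of male C57BL/6J mice, an inbred laboratory strain, aged 10 weeks. Mice of the fed group ate freely and mice of the fasted group went without food for 16 h. Each group held 3 libraries of total RNA depleted of ribosomal RNA, called here fed or fasted libraries 1, 2 and 3. Values of a gene are given in the order of these numbers. Whether the libraries of a group stem from separate mice is not stated, and p-values therefore measure the spread between these libraries. Chi-square of counts per degree of freedom between libraries of a group was 144 to 417 in fed and 17.2 to 57.3 in fasted livers. That is more than counting noise alone gives. The technical and biological parts of this spread were not tested.

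The liver takes cholesterol up from plasma lipoproteins through surface receptors, moves it between membranes on transfer proteins, and releases it either into HDL or into bile. Sterol sensing works through a pair of opposed switches. The transcription factor SREBP2 is activated when membrane sterol is low and drives sterol synthesis and uptake genes, Stard4 among them. The nuclear receptor LXR is activated by oxysterols when sterol is plentiful and drives export genes such as Abca1, Abcg5 and Abcg8, and also Mylip, whose product marks lipoprotein receptors for breakdown.

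The genomic setting of Abcg5 and Abcg8 is shown because both transcripts varied together, as described below. In GENCODE M21 on GRCm38, Abcg5 (ENSMUSG00000040505) lies on chromosome 17 at 84658234 to 84683011 on the minus strand, and Abcg8 (ENSMUSG00000024254) at 84676302 to 84700333 on the plus strand. The longest Abcg8 gene model starts inside Abcg5, so that both genes overlap by 6710 bases on opposite strands. Both genes carry the same deposited locus, chromosome 17 from 84658233 to 84700333, which spans both gene models. How the authors' counting treated strand and this shared locus is unknown from the labels and file headers, and the counts of both are uncertain to that extent. RefSeq also gives an Abcg8 start 110 bases from the Abcg5 start, head to head with it. The window from 250 bases before that start to 50 after it, chr17:84682871-84683170 (GRCm38.p6, plus strand, RefSeq), is printed 5′ to 3′, with GATAA or its reverse complement TTATC in capitals. It shares 209 bases with the corresponding window of Abcg5.
Abcg8: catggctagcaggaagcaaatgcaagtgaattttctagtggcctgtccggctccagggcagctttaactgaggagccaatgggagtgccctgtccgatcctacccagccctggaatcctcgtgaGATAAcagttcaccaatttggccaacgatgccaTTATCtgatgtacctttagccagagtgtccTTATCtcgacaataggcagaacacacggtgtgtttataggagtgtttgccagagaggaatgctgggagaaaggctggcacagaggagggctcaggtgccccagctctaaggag
The window held 3 GATAA letters in all, both strands counted. Of 32851 windows of 300 bases in the RefSeq table, 25.4% held GATAA at least once and 0.938% held it 3 or more times. In human, GATA factors are known to act on the region between ABCG5 and ABCG8. A match is a description of the letters and not a bound site.

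The promoter of Abca1 is shown because Abca1 was highest in fed library 3, where Abcg5 and Abcg8 were lowest. Abca1 (ENSMUSG00000015243) lies on chromosome 4 at 53030787 to 53159895 on the minus strand of GRCm38. Its window, chr4:53159846-53160145 (GRCm38.p6, minus strand, RefSeq), has in capitals an E-box, CACGTG, and a direct repeat with 4 spacing bases (DR4), the kind of element that LXR reads, searched on both strands as GGTNA, then 5 bases of any kind, then GGTNA.
Abca1: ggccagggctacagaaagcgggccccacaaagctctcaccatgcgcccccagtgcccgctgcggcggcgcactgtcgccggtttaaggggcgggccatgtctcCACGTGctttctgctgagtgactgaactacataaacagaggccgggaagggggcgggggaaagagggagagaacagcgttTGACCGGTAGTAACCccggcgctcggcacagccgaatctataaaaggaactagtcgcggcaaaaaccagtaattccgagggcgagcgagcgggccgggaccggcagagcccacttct
The E-box began at position -147 and the DR4 match, on the reverse strand, at position -67, with the first transcribed base as position 0. These motifs do not overlap each other. An E-box was present in 7.15% and the DR4 letters in 0.718% of all windows. The windows of Lrp1, Mylip, Abcg5 and Abcg8 held neither of these, and none of the 6 windows of the 5 genes with a RefSeq entry held the sterol regulatory element letters TCACNCCAC.

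Levels per transcript length, as deposited FPKM (fragments scaled to transcript length and library depth), ordered the genes as follows. In fed livers Lrp1 stood highest at 108 ± 14.9 FPKM (mean ± SD, n = 3 here and below) and Scarb1 second at 61.9 ± 7.24. Abca1 at 28.9 ± 13.2, Abcg5 at 21.1 ± 10.9, Stard4 at 18.9 ± 7.02 and Abcg8 at 15.3 ± 6.87 FPKM overlapped from neighbour to neighbour. Mylip was lowest at 3.23 ± 1.07. In fasted livers the order was Lrp1 at 117 ± 15.5, Scarb1 at 73.2 ± 12.2, Abcg5 at 27.1 ± 2.09, Abcg8 at 20.4 ± 2.53, Abca1 at 18.4 ± 2.86, Mylip at 6.29 ± 0.864 and Stard4 at 4.04 ± 2.01 FPKM. Abcg8 and Abca1 overlapped there, as did Mylip and Stard4. Stard4 thus stood above Mylip in every fed library, while the fasted libraries of these genes overlapped.

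**Figure D1:**
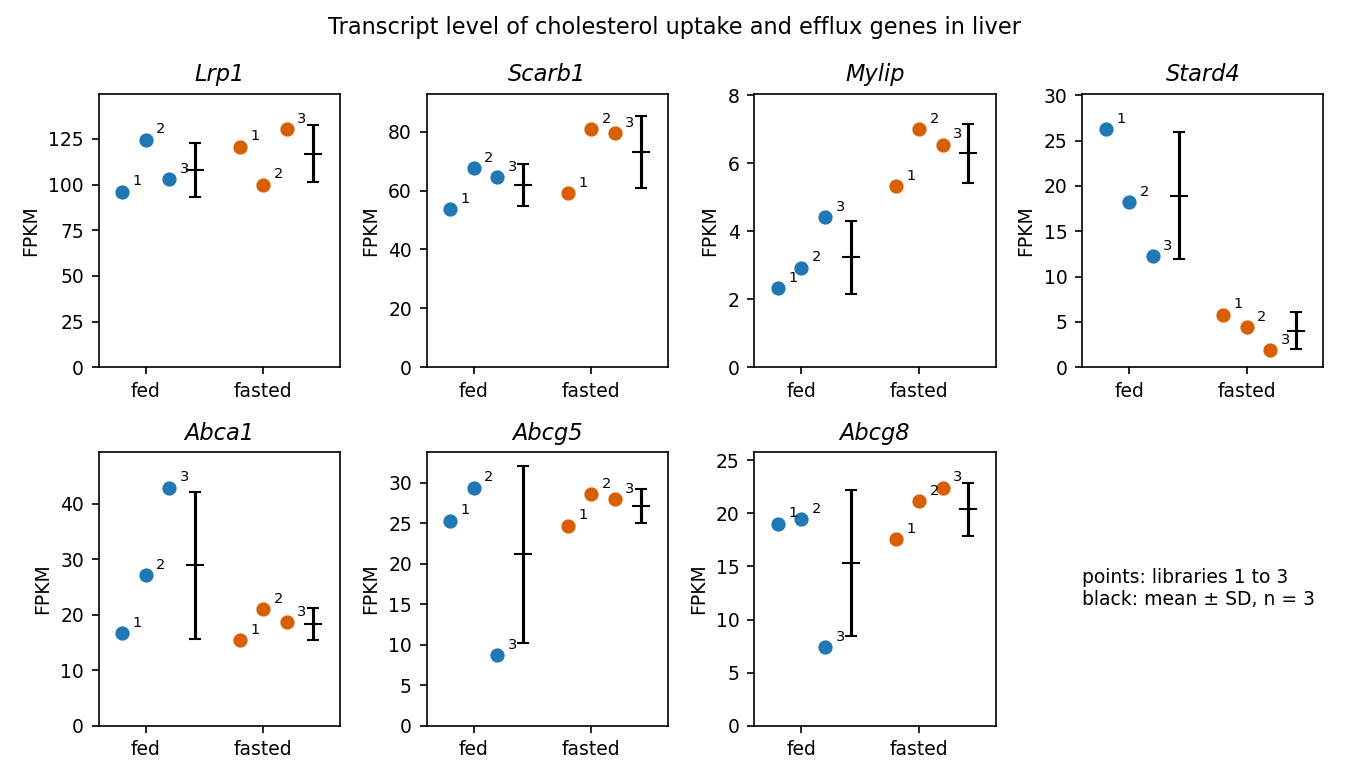
Deposited FPKM of the 7 genes in each fed (blue) and fasted (orange) library, numbered 1 to 3, with the group mean ± SD in black (n = 3). Stard4 and Mylip are the genes whose groups do not overlap, and fed library 3 stands apart for Abca1, Abcg5 and Abcg8.

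The comparison of fasted with fed livers asked which transcripts differ after a 16 h fast. Stard4 fell and none of the other 6 genes passed in edgeR's quasi-likelihood test at an adjusted p under 0.05. Of all 11633 genes tested, 2.52% passed in either direction, with 1.11% lower and 1.41% higher in fasted livers. Groups of CPM (counts scaled to library depth with TMM factors) did not overlap for Stard4 and Mylip, 2 of 7 genes, against 29% of all genes tested. At an unadjusted p under 0.05 there were the same 2, against 21.8% of all genes. By both measures the share among the 7 genes was near that of all genes. DESeq2 called the same 2 genes, against 8.33% of the 12646 genes to which it gave an adjusted p, and limma on log2(FPKM + 1) called 0 of 7, against 1.35% of 11321 genes. Hepatocyte markers, 7 genes such as Ttr and Hnf4a, summed to 12646 to 16504 CPM in fed and 22659 to 27614 CPM in fasted libraries. Of these 7 genes 0 passed in edgeR, 5 at an unadjusted p under 0.05, 5 in DESeq2 and 0 in limma on FPKM. CPM groups did not overlap for 5, such as Cps1, at 1063 to 2731 in fed and 4758 to 6913 in fasted libraries. Among these were also Tat, at 1098 to 2013 and 3805 to 4774 CPM, and Apoa1, at 4851 to 6292 and 8001 to 9882 CPM. These abundant genes made up much of the higher fasted sum. Groups overlapped for Ttr, at 2003 to 4255 and 2710 to 3255 CPM, and for Serpina1c, at 1623 to 1650 and 1534 to 1737 CPM. Markers of Kupffer cells and macrophages, 7 genes, summed to 423 to 563 CPM in fed and 417 to 624 CPM in fasted libraries. In whole liver, fewer cells of a type and less RNA per cell cannot be told apart, and the part of cell makeup in the results was not tested.

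**Figure D2:**
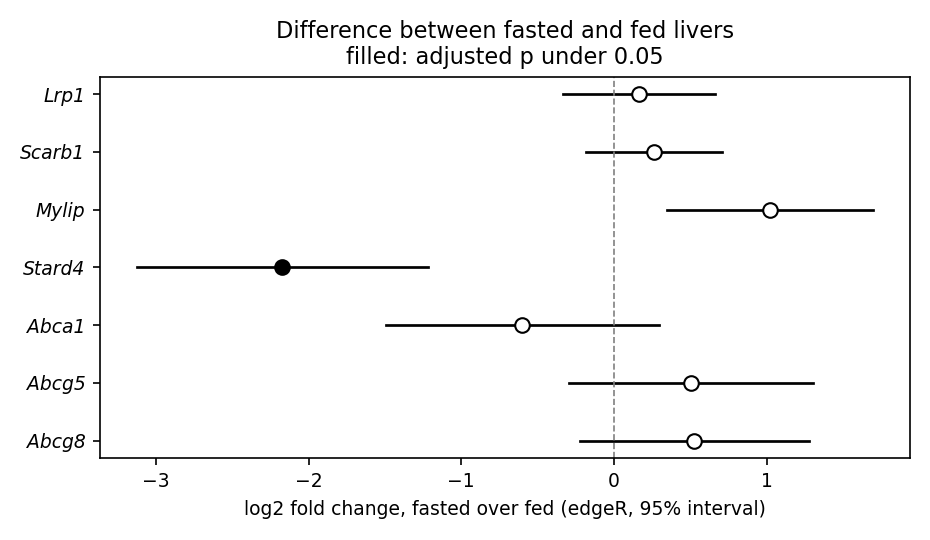
Log2 fold change of fasted over fed livers for each gene from edgeR's quasi-likelihood test, with its 95% interval; filled points have an adjusted p under 0.05. Stard4, at -2.17, is the filled point, and the interval of Mylip lies above 0 although its adjusted p is 0.106.

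Lrp1, a large endocytic receptor through which hepatocytes take up chylomicron remnants and many other ligands, was the most abundant of the genes. Fed livers gave 522, 768 and 710 CPM, and fasted livers gave 763, 735 and 746 CPM. Fed library 1 was low, and fed library 2 lay above all fasted libraries, so the groups overlapped. The log2 fold change was 0.17 (SE 0.213, edgeR adjusted p = 0.689), with a 95% interval of -0.33 to 0.66, that is from 0.794-fold to 1.58-fold. Without fed library 1 it was -0.0059, so the sign of the estimate rested on that library. Lrp1 (ENSMUSG00000040249) lies on chromosome 10 at 127538161 to 127621148 of GRCm38 and overlaps an annotated antisense gene, which leaves its count uncertain.

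Scarb1 encodes the HDL receptor SR-BI, which takes cholesteryl ester from HDL without taking in the particle. Fed livers gave 127, 163 and 176 CPM, and fasted livers gave 160, 209 and 191 CPM. Fasted library 1 lay within the fed range, so the groups overlapped. The log2 fold change was 0.26 (SE 0.191, edgeR adjusted p = 0.466), with a 95% interval of 0.881-fold to 1.64-fold. Changes of both receptors beyond about 1.64-fold upward lay outside these intervals, and smaller ones were not resolved with 3 libraries a group. Scarb1 (ENSMUSG00000037936) lies on chromosome 5 at 125277087 to 125341094 and overlaps an unclassified gene model on its own strand, which leaves its count uncertain too.

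Mylip, also called Idol, encodes the ubiquitin ligase that marks lipoprotein receptors for breakdown. Fed livers gave 6.84, 9.01 and 15.1 CPM, and fasted livers gave 18.3, 23.5 and 20.9 CPM. Every fasted library lay above every fed library, with fed library 3 nearest to the fasted group. The mean went from 10.3 ± 4.29 to 20.9 ± 2.62 CPM, a fitted ratio of 2.03 with a 95% interval of 1.27 to 3.24 (log2 fold change 1.02, SE 0.288). With an edgeR adjusted p of 0.106 (unadjusted 0.00853) Mylip did not pass. It passed without fed library 3, at a log2 fold change of 1.40 (edgeR adjusted p = 0.0136), and in DESeq2 at 1.02 (adjusted p = 0.0347). Over 16 other settings, which changed the tool, filter, scaling or unit or left out 1 library, the adjusted p ran from 0.0136 to 0.307. Mylip (ENSMUSG00000038175) lies on chromosome 13 at 45389742 to 45412022 and overlaps no other annotated gene.

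Stard4 encodes a soluble START domain protein that carries sterol between membranes, and it is a known SREBP2 target. Fed livers gave 120, 94.4 and 66.4 CPM, and fasted livers gave 30.7, 21.7 and 10.1 CPM. Every fed library lay above every fasted library, and fasted library 3 was the lowest. The mean fell from 93.7 ± 27.0 to 20.8 ± 10.3 CPM, which is 4.51-fold lower with a 95% interval from 2.33 to 8.73 (edgeR log2 fold change -2.17, SE 0.407, adjusted p = 0.0436). The direction held in all 16 other settings, with log2 fold changes from -2.56 to -1.86, while the adjusted p missed 0.05 in 8 of them. It was 0.148 without fed library 2, 0.0900, 0.186 and 0.0996 without fasted libraries 1, 2 and 3, and 0.0561 in limma on FPKM. With the replicate number as a block the adjusted p was 0.0446. Stard4 (ENSMUSG00000024378) lies on chromosome 18 at 33199355 to 33213862.

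Abca1 encodes the exporter that hands cholesterol and phospholipid to apolipoprotein A-I, the first step of HDL formation. Fed livers gave 170, 279 and 512 CPM, and fasted livers gave 184, 247 and 203 CPM. Fed library 1 lay below and fed libraries 2 and 3 above all fasted libraries. The log2 fold change was -0.60 (SE 0.381, edgeR adjusted p = 0.404), with a 95% interval of -1.49 to 0.29. Without fed library 3 it was -0.08 (adjusted p = 0.873), and without fed library 1 it was -0.93 (adjusted p = 0.109).

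Abcg5 and Abcg8 encode the partner subunits of the transporter that sends sterols into bile. For Abcg5, fed livers gave 51.4, 62.4 and 22.2 CPM, and fasted livers gave 59.1, 69.8 and 64.6 CPM. For Abcg8, fed livers gave 55.5, 61.7 and 24.5 CPM, and fasted livers gave 61.0, 72.6 and 71.0 CPM. For both genes fed library 3 lay below all others, and fed library 2 lay within the fasted range. The log2 fold change was 0.51 for Abcg5 (SE 0.341, 95% interval -0.29 to 1.31, edgeR adjusted p = 0.431). For Abcg8 it was 0.53 (SE 0.319, 95% interval -0.22 to 1.28, edgeR adjusted p = 0.377). Without fed library 3 the values were 0.18 and 0.22 (edgeR adjusted p = 0.50 and 0.387).

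The ratio of the transcripts of both transporter subunits was steadier than their levels. The ratio of Abcg8 to Abcg5 counts was 1.08, 0.989 and 1.11 in fed livers, library by library, and 1.03, 1.04 and 1.10 in fasted livers. Its mean was 1.06 ± 0.0616 in fed and 1.06 ± 0.0362 in fasted livers. The exact two-sided permutation test of the log2 ratio gave p = 1, where the smallest possible p is 0.1 with 3 against 3 libraries. Counts are not scaled to transcript length, so the ratio of counts is not a ratio of transcript numbers. The ratio of Abcg8 to Abcg5 FPKM was 0.752, 0.663 and 0.844 in fed and 0.710, 0.740 and 0.801 in fasted livers. Its mean was 0.753 ± 0.0906 in fed and 0.750 ± 0.0463 in fasted livers. Fed library 3, where Abcg5 and Abcg8 stood lowest, had the highest ratio in both units, close to that of fasted library 3. The part of reads from the stretch that both gene models share was not tested.

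In CPM 6 of the 7 genes spread further among the fed than among the fasted libraries. The share of all genes that did so was not counted. The highest fed library exceeded the lowest 3.01-fold for Abca1, 2.82-fold for Abcg5 and 2.52-fold for Abcg8, against 1.34-fold, 1.18-fold and 1.19-fold among fasted libraries. Over 11546 genes with counts in every library, the median of this range was 1.44-fold among fed and 1.33-fold among fasted libraries, and the 90th percentile was 3.01-fold and 2.26-fold. The range was 2.21-fold against 1.29-fold for Mylip, 1.47-fold against 1.04-fold for Lrp1 and 1.38-fold against 1.31-fold for Scarb1. Stard4 was the reverse case, with 1.81-fold among fed and 3.03-fold among fasted libraries. In FPKM Lrp1 and Scarb1 also spread further among fasted libraries, at 1.296-fold against 1.304-fold and 1.26-fold against 1.37-fold. The other genes kept their direction in FPKM. Transcripts of the acute phase, 11 plasma protein and related genes that the liver makes in inflammation, summed to 25862, 123278 and 210228 CPM in fed libraries 1, 2 and 3. In fasted libraries 1, 2 and 3 they summed to 99497, 98118 and 47795 CPM. Fed library 3, with the lowest Abcg5 and Abcg8 and the highest Abca1, had the highest acute phase sum. Of these 11 genes 0 passed between fasted and fed livers in edgeR, 0 at an unadjusted p under 0.05 and 0 in DESeq2. The 5 cholangiocyte markers summed to 542 CPM in that library and to 13.7 to 129 CPM in the other 5. Nearly all of the sum was Spp1, at 501.5 CPM, and Sox9, at 39.3 CPM, neither of which is made by cholangiocytes alone. The keratins Krt19 and Krt7 and Epcam were at 0.840, 0 and 0.588 CPM there and below 1 CPM in every other library. The part of either in the exporter values was not tested.

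**Figure D3:**
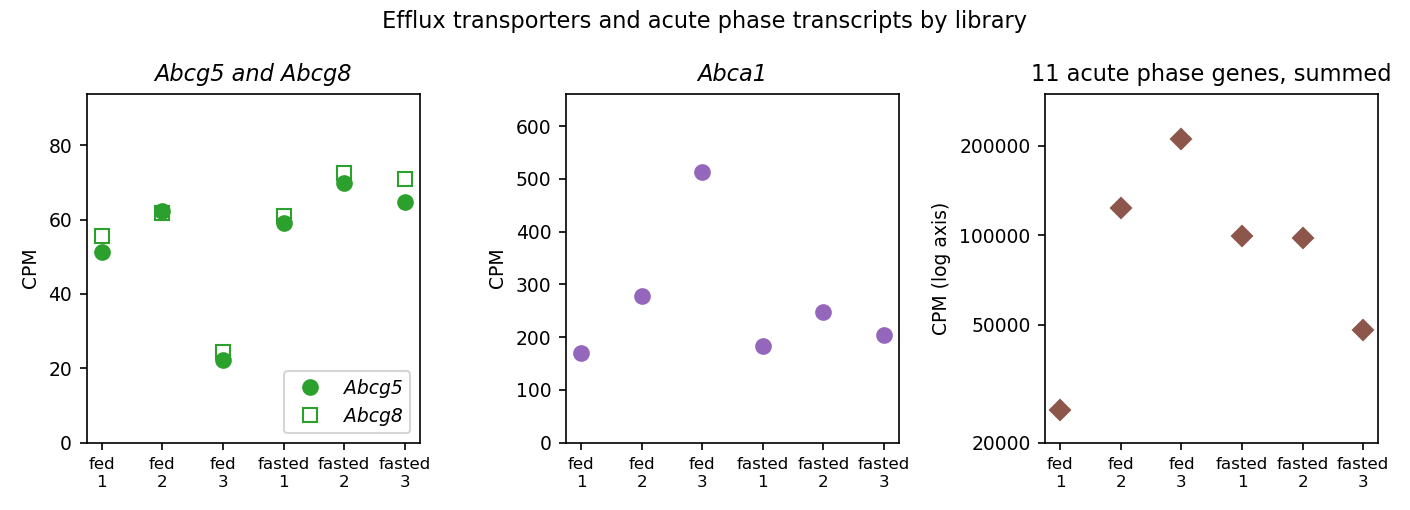
CPM of Abcg5 and Abcg8 (left), of Abca1 (middle) and summed CPM of 11 acute phase genes on a log axis (right), by library. Fed library 3 has the lowest Abcg5 and Abcg8, at 22.2 and 24.5 CPM, the highest Abca1, at 512 CPM, and the highest acute phase sum, at 210228 CPM.

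The genes with the most similar course over the 6 libraries were found by Pearson correlation of log2 CPM among 7045 genes with a mean of at least 10 CPM, as a description over libraries that share feeding state and depth. For Abcg5 the nearest were Abcg8 (r = 0.996), Ece1 (0.995) and Cdh2 (0.991). For Abcg8 they were Ece1 (0.997), Abcg5 (0.996) and Akr1d1 (0.994). Akr1d1, a steroid reductase of bile acid synthesis, was at 9.74 CPM in fed library 3 and at 109 to 222 CPM in the others. For Stard4 Mvd, an enzyme of cholesterol synthesis, came first (r = 0.997) and Gpn1 next (0.988). Mvd ranged from 15.1 to 33.9 CPM in fed and from 0.519 to 3.11 CPM in fasted libraries. For Mylip the nearest were Rps6 (0.997), Braf (0.997) and Lurap1l (0.993), and for Abca1 BC023829 (0.996), Myadm (0.994) and Clcn3 (0.993). For Lrp1 they were Tmem30b (0.978), Rnf114 (0.975) and Nudt19 (0.970), and for Scarb1 Sugp1 (0.993), Mta1 (0.976) and Ubr7 (0.974).

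Other genes of the same pathways were counted in lists. Stard4 belongs by its control with SREBP2 and its sterol synthesis targets. Of 20 tested genes of that list 15 fell and none rose, against 1.11% and 1.41% of all genes. The median log2 fold change was -2.42 against -0.02 over all genes. Dhcr7, the reductase of the last synthesis step, was at 113 ± 21.1 CPM in fed and 20.4 ± 1.37 CPM in fasted livers, 5.53-fold lower (edgeR adjusted p = 0.00452). Hmgcs1, the cytosolic HMG-CoA synthase, fell 10.7-fold, Nsdhl, a sterol dehydrogenase, 9.32-fold and Lss, the lanosterol synthase, 5.16-fold (edgeR adjusted p = 0.00901 each). Without fed library 2 the list had 4 calls, without fasted libraries 1 and 2 it had 5 and 0, and with the replicate number as a block it had 8. The fall of Stard4 thus had the direction of all 20 estimates of this list.

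LXR receptors and their other targets gave 1 fall and no rise among 12 tested genes, against 1.11% and 1.41% of all genes. The median log2 fold change was -0.17, with 5 estimates above 0. Of the 12 genes 6 had an unadjusted p under 0.05, against 21.8% of all genes, and 5 had groups that did not overlap, against 29%. DESeq2 called 2, against 8.33% of all genes, and limma on FPKM 1, against 1.35%. With no count filter edgeR called 2, where 300 of 15628 genes passed. Srebf1 and Scd1, of fatty acid synthesis and named after their values were seen, had fitted folds of 8.44 and 7.05 toward lower fasted levels without passing (edgeR adjusted p = 0.0583 and 0.143). The gene that fell was Acsl3, an acyl-CoA synthetase, at 38.9 ± 7.91 CPM in fed and 10.6 ± 3.24 CPM in fasted livers (3.68-fold lower, edgeR adjusted p = 0.0209). It was the single call of that list, which went to 2 calls without fed library 1, 3 without fed library 3 and 0 without fed library 2, without any of the fasted libraries or with the replicate block. Among the LXR-driven genes described here, Abca1 had an estimate below 0 and Mylip, Abcg5 and Abcg8 had estimates above 0.

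Of 18 tested lipoprotein receptors, co-receptors and adaptors 0 passed in edgeR, against 2.52% of all genes. An unadjusted p under 0.05 was reached by 2, against 21.8%. In DESeq2 and in limma on FPKM 0 passed, against 8.33% and 1.35%. The median log2 fold change of the list was -0.05. Sdc1, a heparan sulfate proteoglycan that binds remnant lipoproteins, was at 288 ± 117 CPM in fed and 279 ± 28.7 CPM in fasted livers (edgeR adjusted p = 0.949). Lrpap1, the chaperone of the Lrp1 receptor, was at 37.5 ± 3.94 and 36.3 ± 2.75 CPM (edgeR adjusted p = 0.859).

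Of 17 tested genes of intracellular sterol transfer and storage 0 passed in edgeR and 0 in limma on FPKM, while 7 had an unadjusted p under 0.05 and 5 passed in DESeq2, with a median log2 fold change of 0.19. Over all genes these shares were 21.8% at an unadjusted p under 0.05 and 8.33% in DESeq2. Scp2, the sterol carrier protein of peroxisomes, was at 3014 ± 1587 CPM in fed and 3266 ± 187 CPM in fasted livers (edgeR adjusted p = 0.890). Osbpl9, an oxysterol-binding protein family member, was at 123 ± 14.0 and 151 ± 18.5 CPM (edgeR adjusted p = 0.344). In sterol efflux and HDL metabolism 1 of 12 tested genes rose and none fell, against 1.41% and 1.11% of all genes. The median log2 fold change was 0.27. The gene that rose was Abca6, a transporter of the same subfamily as Abca1. It was at 137 ± 23.7 CPM in fed and 309 ± 34.2 CPM in fasted livers, 2.27-fold higher (edgeR adjusted p = 0.0314). Of the 12 genes 4 had an unadjusted p under 0.05, against 21.8% of all genes, and 3 had groups that did not overlap, against 29%. The list gave 3 calls in DESeq2, against 8.33% of all genes, 1 in limma on FPKM, against 1.35%, and 0 there with no filter. It gave 2 calls without fed library 1 or fed library 3, and 0 without fed library 2, without any of the fasted libraries or with the replicate number as a block.

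**Figure D4:**
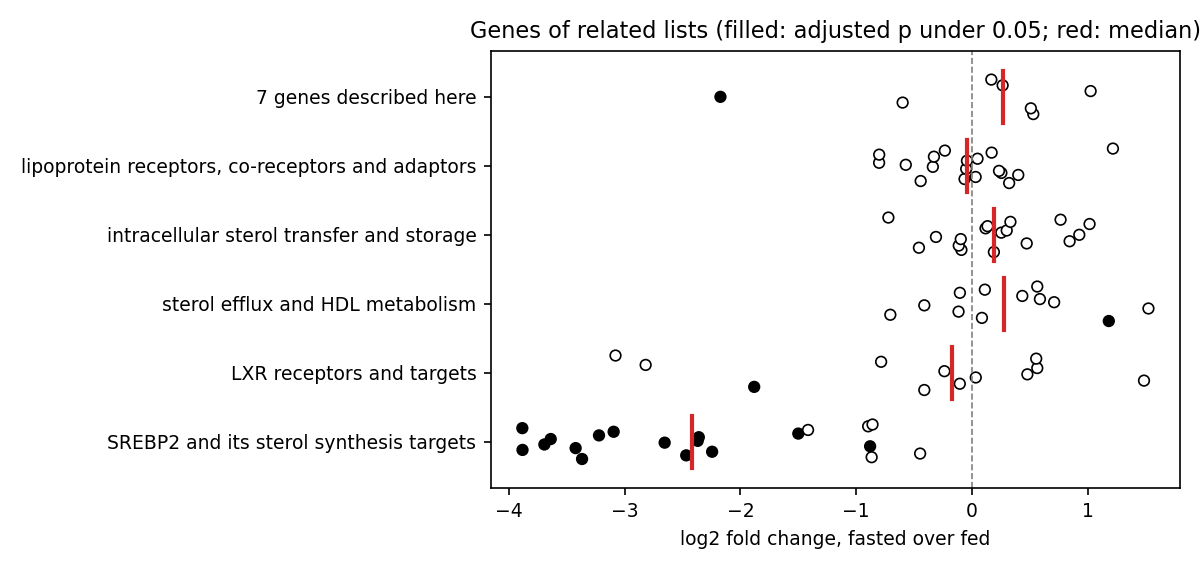
Log2 fold change of fasted over fed livers for the 7 genes and for the tested genes of 5 related lists; each point is a gene, filled where the edgeR adjusted p is under 0.05, and the red line is the list's median. Stard4, at -2.17, lies within the range of the SREBP2 list, whose median is -2.42, and the medians of the other lists lie between -0.17 and 0.27.

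Across settings, the direction of each estimate was kept for 6 of the 7 genes in all 16 alternatives, and for Lrp1 in 15. The ranges of the log2 fold change were 0.11 to 0.37 for Scarb1, 0.77 to 1.40 for Mylip, -2.56 to -1.86 for Stard4, -0.93 to -0.08 for Abca1, 0.18 to 0.78 for Abcg5 and 0.22 to 0.74 for Abcg8. The far ends of these ranges came from leaving out single libraries.

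**Figure D5:**
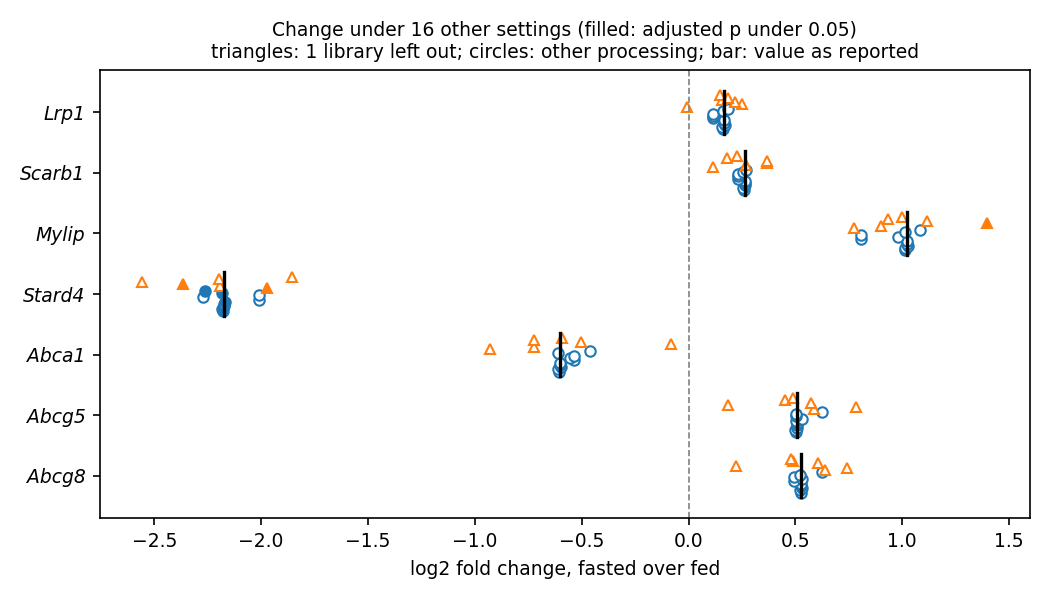
Log2 fold change of fasted over fed livers for each gene as reported (bar) and under 16 other settings, with triangles for settings that leave out 1 library and circles for other processing; filled symbols have an adjusted p under 0.05. The triangles reach from -0.93 to -0.08 for Abca1, and Stard4 lies between -2.56 and -1.86 throughout.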

How the data were processed

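Total RNA from 6 liver libraries was depleted of ribosomal RNA and sequenced from stranded libraries, per the labels' protocols. CASAVA 1.8 and TopHat2 are listed in the submitters' processing notes, with the human build hg19, although the deposited loci match mouse GRCm38. The counting program, its annotation and its use of strand are not given in those notes. The authors' table gives FPKM and estimated counts for 22564 lines, per the file headers; 1 further line was emptied for this work. The deposited estimated counts are scaled: 91.2% to 91.6% of values above 0 and below 1000 in a library were whole multiples, within 0.02, of a library step between 0.84 and 1.18. Counts were divided by that step, rounded, and summed over lines that share a symbol (162 lines), with totals of 11158001 to 14771815. These totals limit precision less than the 3 libraries a group do.

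Fasted and fed libraries were compared with edgeR 4.0.16 (R 4.3.3; quasi-likelihood F test, TMM, filterByExpr at a minimum count of 10, no covariate, two-sided, Benjamini-Hochberg adjustment over 11633 genes, threshold 0.05). The standard error is the size of the log2 fold change over the square root of F. Log2 CPM for correlations used a prior count of 2. Alternatives were DESeq2 1.42.0, RLE factors, no filter, robust fitting, the deposited counts rounded, limma 3.58.1 with trend on log2(FPKM + 1) or log2(FPKM + 0.1) with a mean FPKM of at least 0.5 or no filter, removal of the 10 most abundant genes, the replicate number as a block, and each library left out. The scripts were tested on simulated data with 3 libraries a group. There edgeR called 1 of 67 genes changed 1.5-fold, 15 of 67 changed 2-fold and 45 of 66 changed 4-fold. Of its 72 calls 11 fell on unchanged genes, a larger share than the threshold of 0.05 names. The adjusted p of Stard4, 0.0436 in edgeR, lies close to that threshold.

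The members and lists were chosen with earlier results of these data known. Named genes are the 7 members; in each list up to 4 genes that pass or, where none does, the 2 most abundant by FPKM; and the 3 genes nearest to each member by correlation, other than Gm, Rik and LOC symbols. The list symbols Msmo1 and Adgre1 stand in the table as Sc4mol and Emr1, matched by Ensembl identifier. Of 7 members 5 had a RefSeq promoter entry. A gene that the rule selects is not reported here.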

Additional observations from a re-analysis of the deposited data

How the results depend on the processing

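With 3 libraries a group, single libraries decided much. The count of 293 called genes (56.0% of them higher in fasted livers) was 1054 in DESeq2, 153 in limma on FPKM + 1 (46.4% higher), 142 on FPKM + 0.1 (45.8% higher), 40 on FPKM + 1 with no filter (40% higher), 29 with the replicate number as a block and 3 to 754 with 1 library left out; the cause was not tested. Over the 5 related lists 17 genes were called, against 28 in DESeq2, 8 in limma on FPKM + 1 with no filter, 8 with the block and 0 to 24 with 1 library left out. Stard4 lost its call with robust fitting (log2 fold change -2.17, adjusted p = 0.0504), in limma on FPKM + 1 (-2.01; also -2.01 with no filter, adjusted p = 0.110) and on FPKM + 0.1 (-2.27, adjusted p = 0.0636), and ran from -2.56 to -1.86 with 1 library left out. Mylip gained a call in DESeq2 (1.02), and ran from 0.77 to 1.40 with 1 library left out. Lrp1 ran from -0.0059 to 0.25 and the log2 ratio of Abcg8 to Abcg5, -0.00051 as reported, from -0.0488 to 0.0319 (0.0154 without fed library 1, 0.0319 without fed library 3, 0.0162 and 0.0108 without fasted libraries 1 and 2). The replicate block changed no call among the 7 genes. The labels do not say that the number pairs libraries, so the numbers were not taken as pairs. Deviations from the group mean correlated at -0.0739, 0.183 and -0.126 between libraries of numbers 1, 2 and 3. Between libraries of different numbers they ran from -0.255 to 0.293. With 3 libraries a group these correlations cannot decide whether libraries were paired.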

Other observations

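Some genes next to the described ones had groups that did not overlap without passing in edgeR; they were chosen after their values were seen. Abcb4, the flippase that supplies phospholipid to bile beside the Abcg5 and Abcg8 transporter, had a log2 fold change of 1.52 (SE 0.350, edgeR adjusted p = 0.0704). Soat2, which esterifies cholesterol in hepatocytes, had 1.01 (SE 0.235, adjusted p = 0.0715), Osbpl1a, an oxysterol-binding protein family member, 0.93 (SE 0.197, adjusted p = 0.0585) and Npc1, which exports cholesterol from late endosomes, 0.84 (SE 0.216, adjusted p = 0.0900). All of these estimates were above 0. Other genes of the related lists had estimates below 0 at an unadjusted p under 0.05 without passing in edgeR. Examples were Tmem97 at -0.72 (adjusted p = 0.114), Gramd1c at -0.46 (0.189), Pdzk1 at -0.80 (0.154) and Msr1 at -0.57 (0.137). Of the list of intracellular sterol transfer and storage, 9 of 17 genes had groups that did not overlap, against 29% of all genes tested. That list had 11 estimates above 0 and 6 below.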
